A study of Homo sapiens with 6 samples.

Results

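Actin filaments and the genes that serum response factor (SRF) controls were followed in cells labelled HepG2 and treated with polydatin (PD). The group was made of 10 genes out of the 28563 in the expression table. The choice was made by symbol, for their known place in the actin cytoskeleton, with earlier results of these data known. They are the actins ACTB and ACTG1, the transcription factor SRF itself, and 7 genes of the contractile apparatus and its anchors, namely TAGLN, TAGLN2, MYL9, CNN2, TPM1, VCL and FLNA. HepG2 is an established human liver cancer cell line, which the study describes as hepatocellular carcinoma. PD is a stilbene glucoside, the glucoside of resveratrol. The cells were grown in separate plates and given either PD, labelled 336 µM, or the vehicle DMSO alone for 24 h, and RNA from 3 plates of each kind was sequenced, 1 library per plate. The methods of the study give a slightly lower dose than the labels. Neither group had another agent or a genetic change named in the labels, and since all plates came from 1 line, the replicate error measures the spread between plates only.

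SRF is a transcription factor that binds a short DNA element called the CArG box. Its partners decide which genes it drives. The myocardin-related factors MRTFA and MRTFB are held by free actin monomers (G-actin) and reach the nucleus when signalling through RHOA and related GTPases turns monomers into filaments, and there they drive genes of actin filaments, focal adhesions and contraction. The ternary complex factors ELK1, ELK3 and ELK4 respond to MAP kinase signalling instead. Together with SRF they control immediate early genes such as EGR1 and FOS. ACTB, ACTG1 and SRF are themselves SRF target genes, so that the circuit feeds back on its own input. In hepatocytes and the cells derived from them, actin filaments form the cortex, the bile canaliculus and the stress fibres by which cultured cells pull on their plate.

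The values are FPKM, the number of sequenced fragments of a gene scaled by the length of the gene and by the total of the library. They are relative levels within each library, and in bulk RNA fewer cells that express a gene and less RNA of it per cell cannot be told apart. Library totals, worked back from the FPKM, were 16308476 to 18071632 fragments. The label of the cells was checked against markers. Of 14 hepatocyte genes searched for, 5 had a row among the genes analysed here, among them APOA1, SERPINA1 and HNF4A, and the highest of their values in any library was 0.172 FPKM. The defining markers of the hepatocyte lineage were therefore at or near 0 in both groups, which goes against the label. Of 5 epithelial markers, 4 had a row. KRT8 rose from 50.1 ± 2.04 FPKM in DMSO to 68.9 ± 2.77 FPKM in PD (SD, n = 3, log2 fold change 0.45, adjusted p = 0.00011 by limma) and KRT18 measured 46.5 ± 1.37 and 47.7 ± 0.709 FPKM (adjusted p = 0.39). The other 2, EPCAM and CDH1, were at most 1.54 FPKM in any library, and KRT19 had no row. EPCAM measured 1.17 ± 0.336 FPKM in DMSO and 1.03 ± 0.123 FPKM in PD, and CDH1 0.127 ± 0.0278 and 0.0343 ± 0.0104 FPKM. The part of these markers in the results was not tested. Of 10 markers of smooth muscle and fibroblasts, the cells in which several of these contractile genes are most abundant, 8 had a row, and their FPKM summed to 5.26 to 5.99 in DMSO and 6.02 to 6.45 in PD. COL1A1 made most of that sum, while the smooth muscle myosin MYH11 was at most 0.219 FPKM and desmin (DES) at most 0.0747 FPKM. Of 5 endothelial markers, 4 had a row, and none exceeded 0.039 FPKM.

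To show where SRF could bind near these genes, RefSeq promoter windows (GRCh38.p14, 250 bases before to 50 bases after a transcription start, 300 bases in all) were searched for the CArG box, here CC, then 6 bases that are each A or T, then GG. The element reads as a CArG box on both strands, so 1 strand was searched. Of the 10 genes, 7 had a window, and ACTB, TAGLN and MYL9 did not. The box was found in 4 of the 7, namely ACTG1, SRF, CNN2 and FLNA, and in none of the windows of TAGLN2, TPM1 and VCL. Over all genes with a window it was found in 438 of 27305, or 1.60%. The members were listed as SRF targets, so a higher share among them is part of what they were listed for, and a missing box speaks only of these 300 bases. The stretches around the boxes are shown because they carry the element that joins these genes. They are read 5′ to 3′ along the strand of the gene, with the CArG boxes in capitals. The stretch of ACTG1 lies at chr17:81512854-81512923 on the minus strand, that of SRF at chr6:43171209-43171268 on the plus strand, that of CNN2 at chr19:1026489-1026558 on the plus strand, and that of FLNA at chrX:154374689-154374758 on the minus strand.
ACTG1: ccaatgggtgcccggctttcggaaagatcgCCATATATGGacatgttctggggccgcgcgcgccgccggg
SRF: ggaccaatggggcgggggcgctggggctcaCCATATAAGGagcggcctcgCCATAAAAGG
CNN2: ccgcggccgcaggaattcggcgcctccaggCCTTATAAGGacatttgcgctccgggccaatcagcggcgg
FLNA: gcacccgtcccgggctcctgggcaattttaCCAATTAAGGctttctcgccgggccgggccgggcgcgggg
The box of ACTG1 spans bases 94 to 85 before the start and that of FLNA the same bases, while the box of CNN2 spans bases 89 to 80. SRF carried 2 boxes, at bases 30 to 21 and 10 to 1 before its start. The window of FLNA also overlaps exons of an unnamed long noncoding RNA, ENSG00000285018.

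The question was whether PD changed the mRNA level of these genes. All 10 averaged 0.5 FPKM or more, the level needed for a test, and limma on log2(FPKM + 1), with p adjusted by the Benjamini-Hochberg method over all 14400 genes tested, found 5 of them higher in PD (ACTB, ACTG1, CNN2, TPM1 and FLNA), 3 lower (SRF, TAGLN2 and VCL) and 2 past no threshold (TAGLN and MYL9). PD moved a large part of the transcriptome at this threshold, an adjusted p of at most 0.05. Among all genes tested, 31.9% were higher, 26.2% were lower and 58.1% changed in either direction, and the 8 of 10 members called are to be read against these shares. None of the 10 changed by 2-fold or more, where 3.61% of all genes did. The libraries of the 2 groups did not overlap for 8 of the 10 genes, against 65.4% of all genes tested. The median log2 fold change of the 10 genes was 0.10 and that of all genes tested 0.01. The largest change among them, that of ACTG1, was equalled or exceeded in size by 3757 genes, or 26.1% of those tested. These are small changes measured with little error, and all 10 calls stayed on the same side of the threshold in each of the 12 alternative settings tried.

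**Figure D1:**
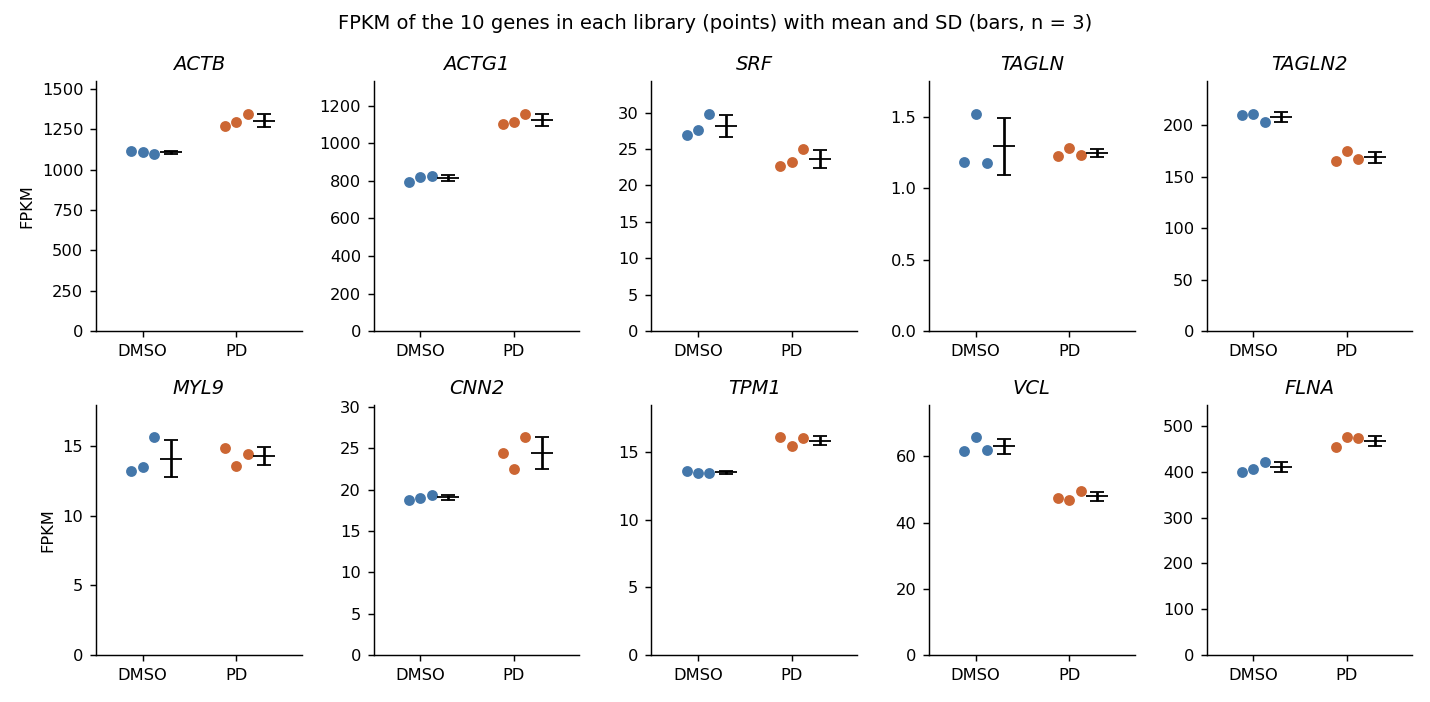
FPKM of the 10 genes (vertical axes, each from 0) in the 3 DMSO libraries (blue) and the 3 PD libraries (orange), with the mean and SD of each group as black bars. The PD libraries lie wholly above the DMSO libraries for ACTB, ACTG1, CNN2, TPM1 and FLNA, wholly below them for SRF, TAGLN2 and VCL, and overlap them for TAGLN and MYL9.

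The actins were the most abundant of these mRNAs and both rose. ACTB (ENSG00000075624, GRCh38 chr7:5526409-5563902, minus strand) encodes cytoplasmic β-actin. Its level was 1117, 1110 and 1096 FPKM in the DMSO libraries and 1271, 1294 and 1347 FPKM in the PD libraries. The lowest PD library stood above the highest DMSO library. The means were 1108 ± 10.7 and 1304 ± 38.8 FPKM (SD, n = 3), a log2 fold change of 0.23 (SE 0.03, adjusted p = 0.00032). ACTG1 (ENSG00000184009, chr17:81509413-81523847, minus strand) encodes cytoplasmic γ-actin. It measured 794, 820 and 828 FPKM in DMSO and 1101, 1111 and 1157 FPKM in PD, again with a clear gap between the groups. From 814 ± 17.5 to 1123 ± 29.7 FPKM, its log2 fold change of 0.46 (SE 0.03, adjusted p = 1.7e-05) was the largest of the 10. By mean level ACTB moved from rank 12 to rank 11 among all genes, and ACTG1 from rank 22 to rank 14.

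The γ-actin gene rose more than the β-actin gene. The ratio of ACTB to ACTG1 was 1.36 in DMSO and 1.16 in PD, a difference of -0.23 on the log2 scale, and the libraries of the groups did not overlap. With 3 libraries against 3, an exact two-sided permutation test cannot give a p below 0.10, which is the p of this ratio (adjusted p = 0.12 over 5 ratios). Together both genes summed to 1922 ± 9.66 FPKM in DMSO and 2427 ± 68.3 FPKM in PD, and the share of ACTG1 in that sum went from 42.3% ± 0.743 to 46.3% ± 0.122 (SD, n = 3), both with an exact permutation p of 0.10. The coding sequences of ACTB and ACTG1 are identical at 1029 of 1128 bases (91.2%) and the proteins at 371 of 375 residues (98.9%), and both genes have processed pseudogenes. How the authors treated fragments that fit several places is not given in the sources used here. The 5 ACTB pseudogenes in the table summed to at most 0.929 FPKM in any library and the 11 ACTG1 pseudogenes to at most 4.98 FPKM, which is small beside their parents. The differences of ACTB and ACTG1 carry this uncertainty.

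The muscle and other actins were near the floor. Of ACTA1, ACTA2, ACTC1, ACTG2 and ACTBL2, only ACTA2, the α-actin of smooth muscle and myofibroblasts, passed the filter. It measured 0.584, 0.521 and 0.432 FPKM in DMSO and 1.06, 0.901 and 1.20 FPKM in PD, which were 22 to 30 and 47 to 58 fragments. The groups did not overlap, and its log2 fold change was 0.44 (SE 0.10, adjusted p = 0.0068), a scale that understates changes at such levels. On fragments with limma voom it was 1.02. The other actin isoforms reached at most 0.333 FPKM in any library and were not tested.

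SRF mRNA was lower in PD. SRF (ENSG00000112658, chr6:43171269-43181506, plus strand) measured 27.0, 27.7 and 29.9 FPKM in DMSO and 22.7, 23.2 and 25 FPKM in PD. All 3 PD libraries lay below all 3 DMSO libraries. The mean fell from 28.2 ± 1.5 to 23.6 ± 1.21 FPKM, a log2 fold change of -0.24 (SE 0.05, adjusted p = 0.0057). Whether the amount or the activity of the SRF protein changed was not tested.

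Among the 6 cofactors of SRF, 5 were tested, of which 2 rose, 1 fell and 2 passed no threshold. The share changed was 60.0%, near the 58.1% of all genes tested. MRTFA, the actin-sensing coactivator, fell from 5.93 ± 0.354 to 4.17 ± 0.145 FPKM (log2 fold change -0.42, adjusted p = 0.00056), and its PD libraries of 4.22, 4.0 and 4.27 FPKM all lay below its DMSO libraries of 5.83, 6.33 and 5.64 FPKM. Its relative MRTFB stood at 4.76 ± 0.0382 FPKM in DMSO and 4.64 ± 0.212 FPKM in PD (95% interval of the log2 fold change -0.15 to 0.09, adjusted p = 0.61). ELK3, a ternary complex factor of low level, rose from 1.69 ± 0.0515 to 2.97 ± 0.327 FPKM (log2 fold change 0.56, adjusted p = 0.00067). ELK1 rose from 25.6 ± 1.29 to 29.5 ± 0.684 FPKM (log2 fold change 0.20, adjusted p = 0.0063), whereas ELK4 measured 11.4 ± 1.19 and 11.9 ± 0.745 FPKM (adjusted p = 0.61). Myocardin (MYOCD), the cofactor of cardiac and smooth muscle, was at most 0.0198 FPKM and was not tested. Of the actin-sensing branch MRTFA was thus lower in PD, as was SRF itself, and MRTFB passed no threshold. Of the MAP kinase branch ELK1 and ELK3 were higher and ELK4 passed no threshold.

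Of 10 genes that carry signals of these GTPases to actin and SRF, 2 rose, 3 fell and 5 passed no threshold, with a median log2 fold change of -0.03. ROCK2, a kinase activated by RHOA that promotes myosin activity, fell from 23.2 ± 1.35 to 12.8 ± 0.984 FPKM (log2 fold change -0.81, adjusted p = 4.4e-05), and its libraries in the PD group spanned 12.1 to 13.9 FPKM against 21.8 to 24.5 FPKM in DMSO. Its relative ROCK1 fell from 10.0 ± 0.261 to 7.66 ± 0.535 FPKM (log2 fold change -0.35, adjusted p = 0.0013). The third fall, that of the GTPase RHOB from 271 ± 19.9 to 233 ± 18.4 FPKM (adjusted p = 0.031), lost its call without DMSO replicate 2 or 3 or PD replicate 2 or 3. The GTPase RHOC rose from 9.80 ± 0.385 to 14.1 ± 0.414 FPKM (log2 fold change 0.48, adjusted p = 8.8e-05), and LIMK1, the kinase that inactivates cofilin, from 4.41 ± 0.117 to 5.87 ± 0.274 FPKM (log2 fold change 0.35, adjusted p = 0.00095). RHOA, the most studied of these GTPases, measured 263 ± 4.87 and 253 ± 6.71 FPKM (log2 fold change -0.06, adjusted p = 0.15) and was called lower with upper quartile scaling (-0.10, adjusted p = 0.024), and the formin DIAPH1 49.1 ± 0.565 and 50.2 ± 0.713 FPKM (adjusted p = 0.40).

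The transgelins differed in level by far more than they changed. TAGLN (ENSG00000149591, chr11:117199370-117207464, plus strand) encodes transgelin or SM22α, an actin-binding protein that is best known from smooth muscle and is a classical SRF target. It measured 1.18, 1.52 and 1.18 FPKM in DMSO and 1.23, 1.28 and 1.24 FPKM in PD, or 79 to 100 fragments a library, and the PD libraries lay within the DMSO range. The log2 fold change was -0.03 with a 95% interval of -0.23 to 0.18 (adjusted p = 0.82), on a scale that understates changes and their interval at such levels. On fragments with limma voom it was -0.04 (SE 0.16, adjusted p = 0.85). Small changes could not be seen at this depth. In GENCODE release 44, exons of PCSK7 on the opposite strand cover 34.1% of those of TAGLN, and exons of an unnamed gene on the same strand 38.1%. PCSK7 averaged 1.60 FPKM in DMSO and 1.79 FPKM in PD, and the unnamed gene 0.0037 and 0 FPKM. The length behind the FPKM of TAGLN was worked back as 3917 bases, against 6550 in GENCODE, so the overlap in the authors' annotation may differ. Whether the counting used strand is not given in the sources used here. TAGLN2 (ENSG00000158710, chr1:159918107-159925507, minus strand), the paralog found in many cell types, measured 210, 211 and 203 FPKM in DMSO and 165, 175 and 167 FPKM in PD. No PD library reached the lowest DMSO library. The mean fell from 208 ± 4.60 to 169 ± 5.22 FPKM, a log2 fold change of -0.30 (SE 0.03, adjusted p = 0.0002). The ratio of TAGLN to TAGLN2 was 0.00618 in DMSO and 0.00739 in PD (log2 difference 0.26, exact permutation p = 0.10, adjusted p = 0.12), without overlap between the groups.

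The calponins rose together. CNN2 (ENSG00000064666, chr19:1026586-1039068, plus strand) encodes calponin 2, which binds actin filaments in non-muscle cells. It measured 18.8, 19.0 and 19.4 FPKM in DMSO and 24.4, 22.5 and 26.3 FPKM in PD. The spread in PD was wider than in DMSO but the groups did not overlap. From 19.0 ± 0.310 to 24.4 ± 1.89 FPKM, the log2 fold change was 0.34 (SE 0.06, adjusted p = 0.0015). Its paralog CNN3, acidic calponin, rose from 17.1 ± 0.419 to 23.8 ± 1.71 FPKM (log2 fold change 0.45, adjusted p = 0.00035). The ratio of CNN2 to CNN3 was 1.11 in DMSO and 1.03 in PD (log2 difference -0.12, exact permutation p = 0.10, adjusted p = 0.12), and the difference was -0.07 without PD replicate 1. CNN1, the smooth muscle calponin, was at 0 in 5 libraries and at 0.0212 FPKM in the other one.

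Among the tropomyosins, which lie along actin filaments and set which proteins can bind them, TPM1 rose while the main genes of the family fell. TPM1 (ENSG00000140416, chr15:63042620-63071915, plus strand) measured 13.6, 13.4 and 13.5 FPKM in DMSO and 16.1, 15.4 and 16.0 FPKM in PD. Every PD library stood above every DMSO library. The mean rose from 13.5 ± 0.110 to 15.8 ± 0.359 FPKM, a log2 fold change of 0.22 (SE 0.04, adjusted p = 0.0017). Exons of the antisense gene TPM1-AS cover 18.0% of those of TPM1, at mean levels of 0.0522 FPKM in DMSO and 0.0118 FPKM in PD. TPM4 fell from 94.0 ± 2.95 to 72.0 ± 2.34 FPKM (log2 fold change -0.38, adjusted p = 0.00011). TPM3 fell from 67.1 ± 3.13 to 60.4 ± 1.64 FPKM (log2 fold change -0.15, adjusted p = 0.018), a call that was lost, with an adjusted p of 0.056 to 0.061, without DMSO replicate 1 or 2 or PD replicate 1 or 3. TPM2 measured 28.4 ± 1.47 and 30.4 ± 1.71 FPKM (adjusted p = 0.16). The summed FPKM of TPM1 to TPM4 went from 203 ± 5.07 to 179 ± 3.51, and the share of TPM1 in it from 6.66% ± 0.158 to 8.87% ± 0.247 (SD, n = 3), each with an exact permutation p of 0.10. The ratio of TPM1 to TPM3 went from 0.201 to 0.262, a log2 difference of 0.38 and the widest of the 5 ratios (exact permutation p = 0.10, adjusted p = 0.12). FPKM was measured per gene, so which TPM1 isoforms made the rise was not analysed here. The levels of the share and of the ratio also depend on the gene lengths behind the FPKM. For TPM1 that length was worked back as 12492 bases. By fragments TPM1 stood above TPM2 in DMSO replicate 1, with 2942 against 2040, though below it in FPKM.

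The regulatory light chain MYL9 did not pass the test. MYL9 (ENSG00000101335, chr20:36541497-36551447, plus strand) encodes a light chain of myosin II whose phosphorylation starts contraction. It measured 13.2, 13.5 and 15.6 FPKM in DMSO and 14.8, 13.6 and 14.5 FPKM in PD. All PD libraries fell inside the DMSO range. The log2 fold change was 0.02 with a 95% interval of -0.14 to 0.18 (adjusted p = 0.81). Its near relatives are MYL12A, at 19.6 ± 1.34 and 21.5 ± 1.38 FPKM (adjusted p = 0.13), and MYL12B, which fell from 95.1 ± 3.57 to 76.8 ± 1.44 FPKM (log2 fold change -0.30, adjusted p = 0.00028). The ratio of MYL9 to MYL12A, 0.719 in DMSO and 0.666 in PD, overlapped between the groups (log2 difference -0.11, exact permutation p = 0.40, adjusted p = 0.40), and the difference was -0.20 without DMSO replicate 1 and -0.04 without DMSO replicate 3. These light chains are close copies of each other, so their counts carry the same uncertainty as those of the actins.

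Of 6 genes for the myosin II heavy chains and the kinase and phosphatase of its light chains, 3 rose, 2 fell and 1 passed no threshold. MYH9, the main heavy chain here, rose from 70.1 ± 1.57 to 77.4 ± 2.76 FPKM (log2 fold change 0.14, adjusted p = 0.012). MYH14 rose from 0.50 ± 0.0876 to 1.49 ± 0.142 FPKM (log2 fold change 0.73, adjusted p = 0.00042), on 72 to 99 DMSO fragments and 215 to 283 PD fragments. MYH10, at 0.736 ± 0.0242 and 1.02 ± 0.0276 FPKM, passed barely (log2 fold change 0.22, adjusted p = 0.049). Both scalings of the libraries other than the authors' own ended the calls of MYH9 and MYH10, leaving MYH14 as the only one of the 3, and the call of MYH10 also ended when any 1 library was left out. On fragments with limma voom MYH10 kept its call (log2 fold change 0.47, adjusted p = 0.0026). With a pseudocount of 0.1 in limma it did not (0.42, adjusted p = 0.054). PPP1CB and PPP1R12A, the catalytic and the targeting subunit of the phosphatase that switches the light chains off, fell from 26.5 ± 1.95 to 20.4 ± 2.31 FPKM (log2 fold change -0.36, adjusted p = 0.0086) and from 6.39 ± 0.453 to 4.80 ± 0.127 FPKM (log2 fold change -0.35, adjusted p = 0.0018).

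The anchors of actin filaments split. VCL (ENSG00000035403, chr10:73995193-74121363, plus strand) encodes vinculin, which links actin to integrin and cadherin adhesions. It measured 61.5, 65.8 and 62.0 FPKM in DMSO and 47.5, 47.0 and 49.6 FPKM in PD. A wide gap lay between the groups, and VCL had the largest fall of the 10 genes, from 63.1 ± 2.34 to 48.0 ± 1.37 FPKM, a log2 fold change of -0.39 (SE 0.04, adjusted p = 0.00012). Exons of AP3M1 on the opposite strand cover 11.1% of those of VCL, and AP3M1 itself went from 32.5 to 26.6 FPKM. If the counting ignored strand, fragments of AP3M1 could bear on VCL over those shared bases only. Their part in the fall was not tested. CTNNA1, α-catenin, a relative of vinculin at cadherin junctions, fell from 53.1 ± 0.707 to 43.3 ± 1.02 FPKM (log2 fold change -0.29, adjusted p = 0.00019). FLNA (ENSG00000196924, chrX:154348524-154374634, minus strand) encodes filamin A, which cross-links actin filaments and ties them to the membrane. It measured 400, 407 and 422 FPKM in DMSO and 453, 475 and 473 FPKM in PD. The PD libraries all stood above the DMSO libraries. From 410 ± 11.3 to 467 ± 11.8 FPKM, its log2 fold change of 0.19 (SE 0.03, adjusted p = 0.0016) was the smallest of those that passed.

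**Figure D2:**
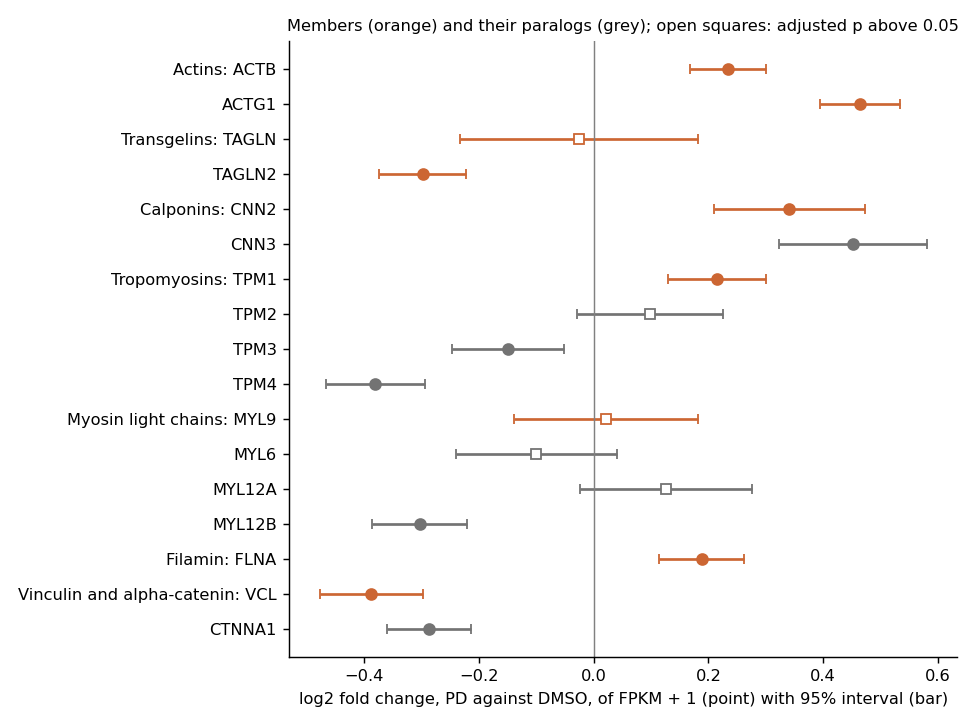
Log2 fold change of FPKM + 1, PD against DMSO (horizontal axis), with its 95% interval from limma, for 9 members (all but SRF) and 8 paralogs. Orange marks members, grey marks paralogs, and open squares mark an adjusted p above 0.05. TPM1 at 0.22 and TPM4 at -0.38 lie on opposite sides of 0, as do the members ACTG1 and TAGLN2, while both calponins lie to the right and VCL and CTNNA1 both lie to the left.

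The order of the levels changed little. In DMSO it ran ACTB, ACTG1, FLNA, TAGLN2, VCL, SRF, CNN2, MYL9, TPM1 and TAGLN, and all neighbours were apart in every library except MYL9 and TPM1, whose ranges overlapped. In PD the order ran ACTB, ACTG1, FLNA, TAGLN2, VCL, CNN2, SRF, TPM1, MYL9 and TAGLN. CNN2 and SRF, which were apart in DMSO with SRF the higher, overlapped in PD, and TPM1 stood above MYL9 in every library.

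Other genes of actin and SRF biology were taken from 9 lists chosen for their known roles, 79 genes in all, of which 78 had a row, 66 were tested, 20 rose, 17 fell and 29 passed no threshold. That is 56.1% changed, against 58.1% of all genes tested, a share near the background. The median log2 fold change was -0.01. With upper quartile scaling the split was 17 higher and 22 lower.

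Among 16 further cytoskeletal targets of SRF and MRTF, 15 were tested, of which 3 rose, 4 fell and 8 passed no threshold, with a median log2 fold change of -0.09. PDLIM7, an adaptor of actin filaments and signalling proteins, measured 8.63, 7.16 and 8.62 FPKM in DMSO and 16.1, 16.2 and 17.1 FPKM in PD. The groups were far apart, the PD mean was 2.02 times the DMSO mean, and the gene had a log2 fold change of 0.94 (SE 0.07, adjusted p = 3.7e-05). ACTN1, α-actinin 1, which bundles stress fibres, rose from 14.5 ± 0.477 to 19.2 ± 0.788 FPKM (log2 fold change 0.38, adjusted p = 0.00027). CALD1, caldesmon, which holds back myosin on actin, fell from 31.1 ± 1.19 to 23.6 ± 1.00 FPKM (log2 fold change -0.38, adjusted p = 0.00028), and the LIM protein FHL1 fell from 6.07 ± 0.822 to 4.41 ± 0.124 FPKM (log2 fold change -0.38, adjusted p = 0.0073). The CArG box was found in the windows of 7 of these 16 genes, among them ACTN1 and FHL1, which moved in opposite directions. Of the 4 members with a box, ACTG1, CNN2 and FLNA rose and SRF fell, and of the 3 with a window but no box, TPM1 rose and TAGLN2 and VCL fell.

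The immediate early genes were at low levels. On the log2(FPKM + 1) scale EGR1 was the only gene of these lists past 2-fold, whereas on fragments, with limma voom, MYH14 (log2 fold change 1.59), ACTA2 and PDLIM7 (both 1.02) were past it too. Of 6 genes 3 were tested, of which 2 rose, none fell and 1 (IER2) passed no threshold. EGR1, a zinc finger factor, measured 1.09, 0.646 and 0.503 FPKM in DMSO and 1.85, 3.95 and 2.91 FPKM in PD, or 27 to 59 and 105 to 217 fragments. The groups did not overlap, and the PD libraries spread widely. Its log2 fold change was 1.14 (SE 0.21, adjusted p = 0.0028), and 0.95 without PD replicate 2. That scale understates changes at such levels, and on fragments with limma voom the value for EGR1 was 1.945 (adjusted p = 5.2e-06). FOS measured 1.39, 0.682 and 1.12 FPKM in DMSO and 1.74, 2.45 and 1.86 FPKM in PD, a log2 fold change of 0.55 (SE 0.15, adjusted p = 0.015) that missed the threshold without PD replicate 2 (adjusted p = 0.055). With limma voom the log2 fold change of FOS was 0.95 (adjusted p = 0.00048). The window of EGR1 held 2 CArG boxes.

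The machinery that builds and takes apart filaments was mixed. Of 10 genes for monomer binding and filament turnover, 9 were tested, of which 3 rose, 1 fell and 5 passed no threshold. Under both other scalings 2 were higher and 3 lower, which turns the split. Thymosin β10 (TMSB10), which binds actin monomers, was the most abundant of them and rose from 731 ± 24.1 to 1097 ± 28.3 FPKM (log2 fold change 0.58, adjusted p = 1.2e-05), while its relative TMSB4X measured 335 ± 17.4 and 328 ± 2.74 FPKM (adjusted p = 0.58). WDR1, a partner of cofilin, rose from 26.9 ± 0.631 to 31.0 ± 0.858 FPKM (log2 fold change 0.20, adjusted p = 0.0025), and the cofilin CFL2 fell from 8.55 ± 0.311 to 6.79 ± 0.211 FPKM (log2 fold change -0.29, adjusted p = 0.0013). The third rise, that of the cofilin CFL1 from 48.3 ± 0.405 to 52.6 ± 2.89 FPKM (adjusted p = 0.047), lost its call under both other scalings and without any 1 library other than PD replicate 1. Profilin 1 (PFN1) measured 116 ± 3.72 and 110 ± 1.07 FPKM (adjusted p = 0.064) and was called lower under both other scalings (log2 fold change -0.11 and -0.13, adjusted p = 0.024 and 0.015).

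Subunits of the Arp2/3 complex, which starts branched filaments, did not move as one. Of 9 genes, 3 rose, 2 fell and 4 passed no threshold. ARPC1B rose from 10.1 ± 0.767 to 19.5 ± 0.606 FPKM (log2 fold change 0.89, adjusted p = 1.9e-05), and its paralog ARPC1A from 56.8 ± 1.60 to 81.2 ± 1.34 FPKM (log2 fold change 0.51, adjusted p = 1.7e-05). ACTR3, one of the actin-related subunits, fell from 37.7 ± 0.603 to 26.7 ± 1.48 FPKM (log2 fold change -0.48, adjusted p = 9.1e-05). The other, ACTR2, fell from 63.0 ± 3.43 to 54.5 ± 3.37 FPKM (log2 fold change -0.21, adjusted p = 0.017), a call that was lost without DMSO replicate 1, DMSO replicate 2 or PD replicate 2 (adjusted p = 0.051 to 0.055).

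**Figure D3:**
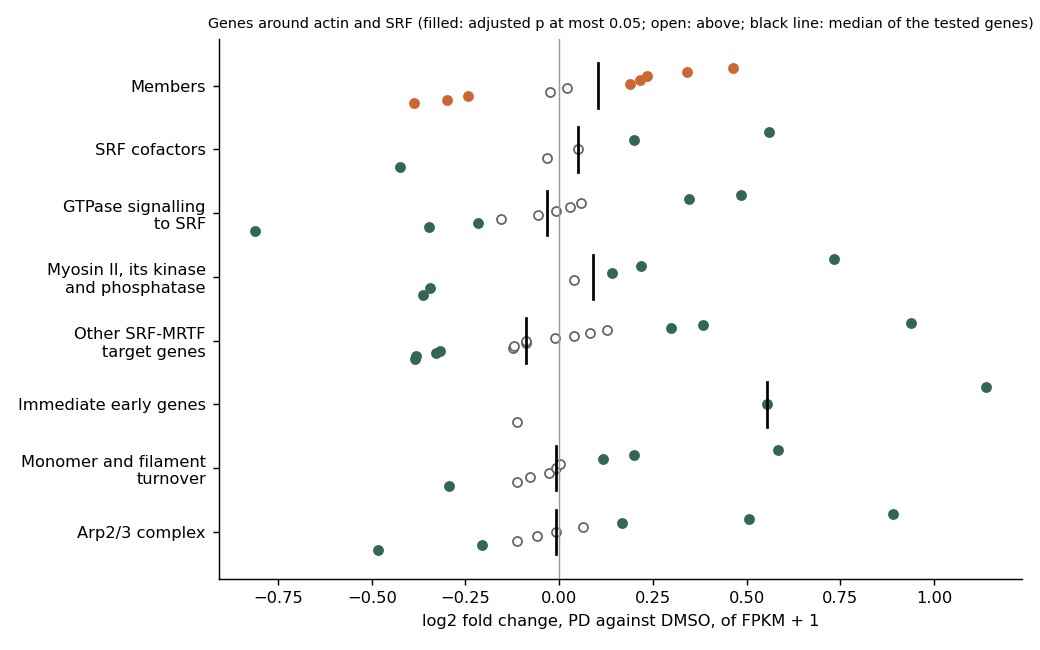
Log2 fold change of FPKM + 1, PD against DMSO (horizontal axis), of each tested gene in the group of 10 (orange) and in 7 lists around it (green), with filled points for an adjusted p of at most 0.05 and black lines for the medians. Filled points lie on both sides of 0 in each list but the immediate early genes, where 3 genes were tested, and EGR1 at 1.14 lies farthest to the right.

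ACTB has a second role in the study, where the RT-qPCR values were normalised to it and its protein was probed on the blots. Its FPKM was therefore set against those of 10 other genes that are often used as references. Of these 10, 5 rose, 3 fell and 2 passed no threshold, so that 8 of 10 changed against 58.1% of all genes. GUSB, HPRT1, PPIA, GAPDH and RPLP0 rose, by log2 fold changes of 0.12 (RPLP0) to 0.57 (GUSB, adjusted p = 6.6e-05). YWHAZ (-0.43), PGK1 (-0.41) and TBP (-0.19) fell. B2M and SDHA had log2 fold changes of 0.01 and -0.02 and adjusted p of 0.74 and 0.66. The call of GAPDH ended under both other scalings, as did that of RPLP0, and that of TBP without any 1 of 4 libraries, DMSO replicates 2 and 3 and PD replicates 2 and 3, with adjusted p from 0.092 to 0.11. GAPDH also lost its call without DMSO replicate 1, PD replicate 2 or PD replicate 3 (adjusted p = 0.060 to 0.076).

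The ratio of ACTB to a reference gene was higher in all PD libraries than in all DMSO libraries for 7 of the 10 genes, lower for 2 and overlapping for 1. The changes of the log2 ratio ran from -0.35 for GUSB to 0.67 for YWHAZ, with a median of 0.17. Against PGK1 the ratio went from 4.02 to 6.31 and against YWHAZ from 9.69 to 15.4. Against B2M it went from 4.30 to 5.03 (log2 difference 0.22), and against GAPDH from 1.58 to 1.69 (log2 difference 0.10), where the groups overlapped. PPIA had the smallest difference, 0.07, with ratios of 3.77 and 3.96. Without DMSO replicate 3 the differences were 0.04 for PPIA and 0.07 for GAPDH. The log2 fold changes of GUSB (0.57) and HPRT1 (0.38) were larger than that of ACTB. Each of the 9 ratios without overlap had an exact permutation p of 0.10, the smallest possible, and an adjusted p of 0.11 over the 10. ACTB is the numerator of all 10 ratios, so they are not independent. Its log2 fold change exceeded that of 70.9% of all genes tested, so a rise of the ratio is not particular to reference genes.

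**Figure D4:**
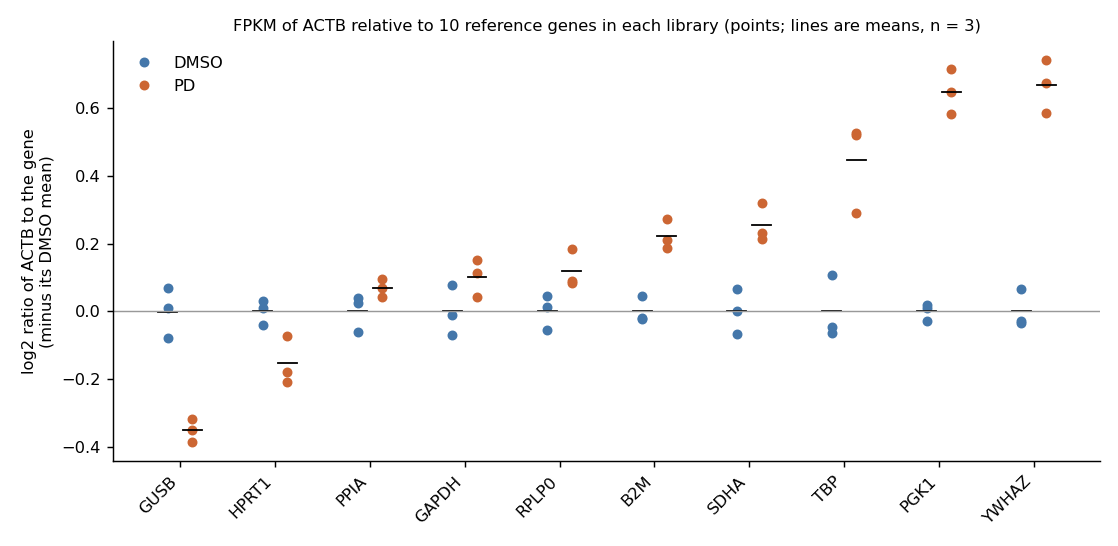
Log2 ratio of the FPKM of ACTB to that of each of 10 reference genes (vertical axis, minus the mean of the DMSO libraries) in the DMSO libraries (blue) and PD libraries (orange), with short black lines for the means of 3 libraries. Genes are ordered by the difference, from -0.35 for GUSB to 0.67 for YWHAZ, and the points of the groups overlap for GAPDH.

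The genes most like ACTB and SRF across the 6 libraries were sought among 4838 genes averaging 10 FPKM or more, by Pearson's r. For ACTB they were CCDC167 (r = 0.998), TRMT2A (r = 0.997) and RGS2 (r = 0.997), and for SRF they were MRFAP1 (r = 0.994), ZNF263 (r = 0.991) and SLC1A5 (r = 0.990). With 3 libraries in each of 2 groups such values mostly repeat the difference between the groups. CCDC167, for instance, measured 11.2, 10.8 and 10.2 FPKM in DMSO and 15.2, 15.9 and 17.5 FPKM in PD. The coefficients are descriptions of the closest genes in a long list and carry no test.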

How the data were processed

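RNA-seq of cells labelled HepG2 and treated with PD or DMSO for 24 h, 3 libraries each, was analysed. The authors selected poly(A) RNA, aligned reads to hg38 with HISAT2, counted them with HTSeq 0.6.0 and deposited FPKM per gene. The strand setting, the annotation and the handling of multi-mapped reads are not given in the sources used here. The authors tested counts with DESeq2. Because the deposited unit is FPKM, limma 3.58.1 (R 4.3.3) was used here on log2(FPKM + 1), with an intensity trend, without covariates, on the 14400 genes averaging 0.5 FPKM or more, with Benjamini-Hochberg adjustment and a threshold of 0.05. Fold changes on this scale are understated for low genes. Whole fragments were recovered from the FPKM steps for all 28563 genes, within 0.0001 fragments, and used for depth and limma voom (genes with at least 10 fragments in 3 libraries). Such depths measure fragments, not independent molecules. Ratios were tested by two-sided exact permutation in scipy 1.17.1, where 0.10 is the smallest p. The fits were tested on simulated data. Symbols, exons and coordinates come from GENCODE release 44 (GRCh38). Alternatives were a pseudocount of 0.1, no filter, median-of-ratios and upper quartile scaling, voom, a replicate block and leaving out each library.

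The members and lists were chosen with earlier results of these data known. All 10 members were named, with, per list, the 2 largest rises and 2 largest falls past the threshold, and all SRF cofactors, actin isoforms and reference genes. RHOA, RHOB, DIAPH1, CFL1, MYH9, TMSB4X, PFN1, IER2, CTNNA1, TPM2, the marker genes and the paralogs in the ratios fall outside this rule and were named after their values were seen. Some genes of these lists are not reported here.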

Additional observations from a re-analysis of the deposited data

How the results depend on the processing

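All 10 members kept their call and every called member its direction under the 12 alternatives: 5 were higher, 3 lower and none past 2-fold in each. The log2 fold changes ranged from 0.19 to 0.25 for ACTB, 0.42 to 0.48 for ACTG1, -0.29 to -0.20 for SRF and -0.43 to -0.36 for VCL. The uncalled TAGLN (-0.06 to 0.04) and MYL9 (-0.02 to 0.09) took both signs. The count of all genes past 2-fold was 520, but 1248 with a pseudocount of 0.1 and 1735 with voom, and that of the lists was 1, but 3 with a pseudocount of 0.1 and 4 with voom. A pseudocount of 1 shrinks low genes by construction, and voom differs in its filter, unit and weighting as well, whose parts were not tested. Leaving out 1 library gave 0 to 1 for the lists, 0 being without PD replicate 2, where EGR1 missed 2-fold on the log2(FPKM + 1) scale. No direction of a called gene reversed. Without the filter the calls of FOS, RHOB, MYH10, CFL1, GAPDH, TBP and RPLP0 ended, and TBP, RHOB and MYH10 also lost theirs under the block below. Some genes of the lists gained a call: median-of-ratios scaling added 4, upper quartile scaling 5 and voom 3. The other scalings moved the median of all genes from 0.01 to -0.02. Replicate numbers did not pair the libraries, since the deviations of same-numbered libraries correlated at -0.03, -0.01 and 0.09, and a replicate block left 4414 genes higher and 3618 lower, against 4588 and 3780, and the members at 5 and 3. TAGLN, ACTA2, EGR1 and FOS had at most 217 fragments in any library, so that small changes in them could not be seen at this depth.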

Other observations

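Among the processed copies of the actin genes, a pair stood out, chosen after their values were seen. ACTG1P25 (chr1:202861754-202875241) measured 0.0499, 0.103 and 0.0756 FPKM in DMSO and 0.954, 0.860 and 0.766 FPKM in PD, or 2 to 4 fragments against 29 to 40. Its mean was under the filter of 0.5 FPKM, so the main test left it out, and its exons overlap those of the unnamed gene ENSG00000291234. ACTG1P20 (chr1:27325329-27325796) went the other way, from 2.97, 2.68 and 3.87 FPKM in DMSO to 2.25, 1.22 and 1.18 FPKM in PD (log2 fold change -0.73, adjusted p = 0.0095 by limma), on 9 to 31 fragments. Over the same libraries the parent gene ACTG1 rose. Whether reads of ACTG1 were assigned to these copies was not tested.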
